A study of Mus musculus with 7 samples.

Results

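The lining of blood vessels was followed in the dental epithelium of the lower incisor of newborn mice through 10 endothelial marker genes: Pecam1, Cdh5, Kdr, Flt1, Tek, Tie1, Emcn, Eng, Esam and Cldn5. The genes were chosen by name, as markers of endothelial cells, and not by their values, though earlier results of these data were known at the time. The members were 10 of the 25700 gene IDs counted, and all 10 were among the 14791 genes that passed the filter on low counts. The question was how much endothelial RNA the separated epithelium held in each pup, and whether that level differed between the genotypes.

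The RNA came from pups at postnatal day 0 (PN0). In 4 libraries, replicates 1, 2, 7 and 10, the pups carried 1 copy of the K14cre transgene and 2 floxed alleles of Nogo-A (K14cre cre/+; Nogo-A fl/fl, named K14;Nogo-A), and in 3 libraries, replicates 3, 8 and 9, the pups were labelled wild-type. Each library was 1 pup, made from the posterior part of the epithelium, taken off the mesenchyme with Dispase on both sides and pooled. The wild-type pups are not described as carrying K14cre or the floxed alleles, so the transgene and the deletion cannot be told apart. K14cre is driven by the promoter of keratin 14, a gene of basal epithelial cells, and endothelial cells are not known to use it. Rtn4, the gene of Nogo-A, had 297 to 344 CPM (counts scaled to a common library size) in K14;Nogo-A against 277 to 346 CPM in wild-type. This count covers the whole gene with its other isoforms, and so does not check the deletion of the form specific to Nogo-A.

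Endothelial cells line every blood vessel. They are held together by adherens and tight junctions, and they grow, sprout and survive through 2 receptor systems: the VEGF receptors, which drive the sprouting of vessels, and the angiopoietin receptors of the Tie family, which stabilise them. The enamel organ is an epithelium without vessels of its own at early stages. Its capillaries lie in the mesenchyme around it and come to run close to the outer enamel epithelium as enamel secretion begins. Nogo-A is known in the central nervous system as a brake on vessel growth as well as on neurites.

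The label of the tissue was checked against its markers. Cdh1, the cadherin of epithelia, had 147 to 237 CPM per kb of exon over the 7 libraries, and Amelx, the gene of amelogenin, had 10455 to 72732. Pdgfrb, a receptor of pericytes and other mesenchymal cells, had 6.28 to 12.4 CPM per kb, and Ptprc, the common marker of white blood cells, had 0.0676 to 0.185. The mesenchymal genes Col1a1, a chain of type I collagen, and Cdh11, a cadherin, had 943 to 4287 and 30.5 to 54.8 CPM per kb, so that Col1a1 was above Cdh1 in level. The epithelial label was met, and RNA of the mesenchyme was present in every library. Totals lay between 20929207 and 41219439 counts. A member had between 118 and 3149 counts in a library, and the 10 together took 0.0198% to 0.0313% of the counts in K14;Nogo-A, against 0.0321% to 0.0366% in wild-type.

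Endothelial genes are known as targets of ETS transcription factors, whose binding core is GGAA. The stretches before the starts of Kdr, Flt1 and Tek, receptors for VEGF or the angiopoietins, are shown. Each is the 250 bases before the RefSeq start in GRCm38.p6, written 5′ to 3′ on the strand of the gene, with GGAA, or TTCC where the core is on the other strand, in capitals. They are Kdr, chr5:75978456-75978705 on the minus strand; Flt1, chr5:147726012-147726261 on the minus strand; and Tek, chr4:94739039-94739288 on the plus strand.
Kdr: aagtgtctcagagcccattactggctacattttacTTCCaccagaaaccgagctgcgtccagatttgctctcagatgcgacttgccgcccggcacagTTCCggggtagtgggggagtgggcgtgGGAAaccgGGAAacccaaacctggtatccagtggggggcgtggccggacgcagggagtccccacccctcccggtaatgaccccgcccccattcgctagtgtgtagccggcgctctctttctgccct
Flt1: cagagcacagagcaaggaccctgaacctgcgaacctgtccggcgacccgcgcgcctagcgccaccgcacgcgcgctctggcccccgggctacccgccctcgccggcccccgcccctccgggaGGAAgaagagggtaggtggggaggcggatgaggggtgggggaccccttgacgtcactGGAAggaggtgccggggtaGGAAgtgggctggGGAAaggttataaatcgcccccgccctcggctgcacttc
Tek: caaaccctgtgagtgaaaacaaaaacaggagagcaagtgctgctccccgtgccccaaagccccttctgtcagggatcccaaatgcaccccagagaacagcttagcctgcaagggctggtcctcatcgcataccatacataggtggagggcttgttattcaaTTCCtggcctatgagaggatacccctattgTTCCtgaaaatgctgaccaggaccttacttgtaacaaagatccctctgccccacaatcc
The window held 4 matches in Kdr, 4 in Flt1 and 2 in Tek. RefSeq windows were matched for 7 of the 10 members, and 6 of these 7 had at least 1 GGAA on either strand, Tie1 with 7 matches, Emcn with 4 and Eng with 3, while Cldn5 had 0. The RefSeq start of Tie1 lies 212 bases from its GENCODE start, so that most of its window falls inside the gene as GENCODE places it. No window was matched for Pecam1, Cdh5 and Esam. The GGAA core was present in 93.4% of all 32851 windows of the same length, with a median of 3 matches. These windows left out 1 chromosome, which holds no member. The longer form AGGAAG, which contains GGAA, was present in 4 of 7 members (Flt1, Tie1, Emcn and Eng) and in 29.5% of all windows, and CGGAAG in Tie1 alone and in 13.6% of all windows. A match is a description of the letters and not a site of binding.

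Summed over the 10 genes, the endothelial level was 191, 282, 324 and 215 CPM in replicates 1, 2, 7 and 10 of K14;Nogo-A. In replicates 3, 8 and 9 of wild-type it was 326, 345 and 325 CPM. The wild-type pups thus lay close together, and the K14;Nogo-A pups ranged from well below them to just below them. In bulk RNA, fewer endothelial cells and less endothelial RNA per cell cannot be told apart. In replicate 1 all 10 members were below each wild-type library, in replicate 10 it was 9 members, in replicate 2 it was 6 and in replicate 7 it was 3. The share of all genes below each wild-type library was not counted for single libraries, so these counts have no background beside them. Replicate 1 held the lowest value of 9 members, and replicate 10 that of Esam.

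**Figure D1:**
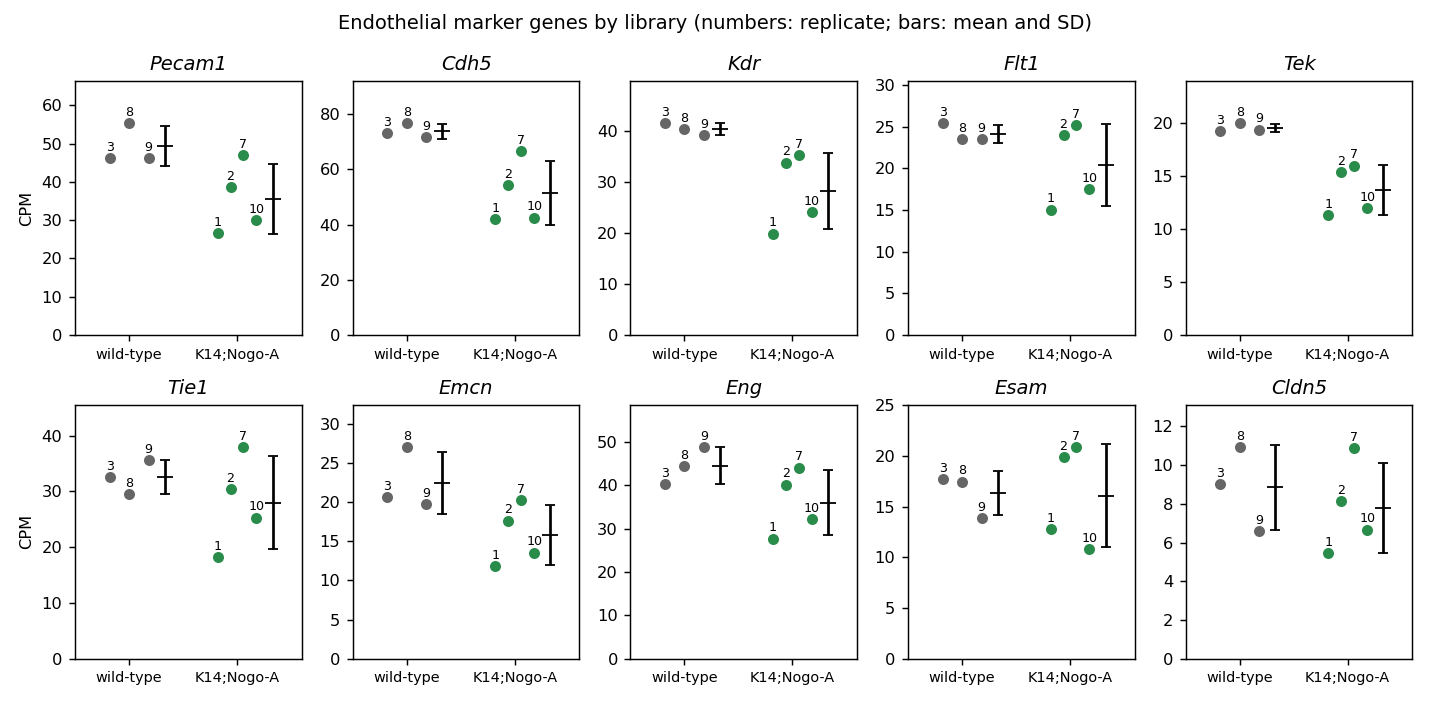
Level of each of the 10 endothelial marker genes (CPM, linear axis from 0) in the 3 wild-type libraries (grey) and the 4 K14;Nogo-A libraries (green), with replicate numbers beside the points and the mean with its SD as a bar. K14;Nogo-A replicates 1 and 10 sit low in most panels, and the points of the genotypes are apart for Cdh5, Kdr and Tek.

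Of the receptors for VEGF, Kdr (VEGFR2; ENSMUSG00000062960, chromosome 5 of GRCm38, 75932827 to 75978458, minus strand) carries most of the growth signal. Its level in replicates 1, 2, 7 and 10 of K14;Nogo-A was 19.9, 33.8, 35.3 and 24.1 CPM, and in replicates 3, 8 and 9 of wild-type it was 41.5, 40.3 and 39.1. The genotypes did not overlap, with the K14;Nogo-A pups spread over a wide range below a narrow group of wild-type pups. The means were 28.3 ± 7.47 CPM (SD, n = 4) and 40.3 ± 1.18 (SD, n = 3). The log2 fold change, K14;Nogo-A over wild-type, was -0.51 with a standard error of 0.18, and edgeR's quasi-likelihood test gave an adjusted p of 0.29.

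Flt1 (VEGFR1; ENSMUSG00000029648, chromosome 5, 147561604 to 147726011, minus strand) binds VEGF tightly, signals weakly and is known to hold the ligand away from Kdr. It had 15.1, 24.0, 25.2 and 17.5 CPM in replicates 1, 2, 7 and 10 of K14;Nogo-A, and 25.4, 23.5 and 23.5 CPM in the wild-type replicates. Here K14;Nogo-A replicates 2 and 7 lay among the wild-type pups, and only replicates 1 and 10 below them. The log2 fold change was -0.24 (SE 0.17), with an adjusted p of 0.57.

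Of the receptors for the angiopoietins, Tek (Tie2; ENSMUSG00000006386, chromosome 4, 94739289 to 94874976, plus strand) is the one that binds them. It had 11.3, 15.4, 16.0 and 12.0 CPM in replicates 1, 2, 7 and 10 of K14;Nogo-A and 19.2, 19.95 and 19.4 CPM in replicates 3, 8 and 9 of wild-type. Every K14;Nogo-A pup was below every wild-type pup, and the wild-type values were within a ratio of 1.04 of each other. The log2 fold change was -0.51 (SE 0.14), with the lowest adjusted p of the 10 members, 0.22. DESeq2 gave an adjusted p of 0.045 for Tek.

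Tie1 (ENSMUSG00000033191, chromosome 4, 118471191 to 118490061, minus strand), the partner of Tek that binds no angiopoietin by itself, had 18.2, 30.5, 37.9 and 25.3 CPM in replicates 1, 2, 7 and 10 of K14;Nogo-A. In replicates 3, 8 and 9 of wild-type it had 32.6, 29.5 and 35.5 CPM. The highest value of Tie1 was in a K14;Nogo-A pup, replicate 7, and so was its lowest, in replicate 1. Its log2 fold change was -0.21 (SE 0.20), with an adjusted p of 0.69.

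Of the genes of the junctions, Cdh5 (VE-cadherin; ENSMUSG00000031871, chromosome 8, 104101625 to 104144511, plus strand) makes the adherens junctions between endothelial cells. Its level was 42.0, 54.4, 66.8 and 42.6 CPM in replicates 1, 2, 7 and 10 of K14;Nogo-A and 73.0, 76.7 and 71.7 CPM in replicates 3, 8 and 9 of wild-type. The genotypes did not overlap, with means of 51.4 ± 11.7 CPM (SD, n = 4) and 73.8 ± 2.60 CPM (SD, n = 3). The log2 fold change was -0.52 (SE 0.15), the largest in size of the 10 members, with an adjusted p of 0.23.

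Pecam1 (CD31; ENSMUSG00000020717, chromosome 11, 106654217 to 106750628, minus strand), an adhesion molecule at the borders of endothelial cells that platelets and some white blood cells also carry, had 26.5, 38.6, 47.0 and 29.9 CPM in replicates 1, 2, 7 and 10 of K14;Nogo-A. It had 46.1, 55.3 and 46.3 CPM in replicates 3, 8 and 9 of wild-type. Replicate 7 was just above the lower wild-type pups, and the other 3 K14;Nogo-A pups were below all of them. The log2 fold change was -0.47 (SE 0.18), with an adjusted p of 0.30.

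The tight junction genes gave no such order. Cldn5 (claudin 5; ENSMUSG00000041378, chromosome 16, 18776847 to 18778262, plus strand, 1 exon), the claudin of endothelial tight junctions and of the blood-brain barrier, had 5.45 to 10.9 CPM in K14;Nogo-A against 6.58 to 10.9 CPM in wild-type. Esam (ENSMUSG00000001946, chromosome 9, 37528078 to 37538319, plus strand), an immunoglobulin-type adhesion molecule of the same junctions that platelets also carry, had 10.8 to 20.9 CPM in K14;Nogo-A against 13.9 to 17.7 CPM in wild-type. The wild-type range of Esam lay inside the K14;Nogo-A range, whose upper values were those of replicates 2 and 7. The log2 fold changes were -0.19 for Cldn5 (SE 0.24) and -0.02 for Esam (SE 0.22), with adjusted p of 0.77 and 0.97.

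Of the remaining surface proteins, Emcn (endomucin; ENSMUSG00000054690, chromosome 3, 137341067 to 137432185, plus strand), a sialomucin of capillaries and veins, had 11.9, 17.6, 20.2 and 13.5 CPM in replicates 1, 2, 7 and 10 of K14;Nogo-A. It had 20.7, 27.0 and 19.7 CPM in replicates 3, 8 and 9 of wild-type. Its genotypes overlapped through K14;Nogo-A replicate 7 alone, and the log2 fold change was -0.51 (SE 0.18; edgeR, adjusted p = 0.29). Eng (endoglin; ENSMUSG00000026814, chromosome 2, 32646595 to 32682669, plus strand), a co-receptor for BMP9 and TGF-beta, had 27.7 to 44.1 CPM in K14;Nogo-A against 40.2 to 48.8 CPM in wild-type. Its log2 fold change was -0.30 (SE 0.15; edgeR, adjusted p = 0.42). The exons of Eng share 61 bases with those of Fpgs on the opposite strand, and without a known strand setting of the counting, reads in that stretch cannot be given to 1 gene.

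Over all 10 members the log2 fold change was negative, with a median of -0.39, where the median of all genes tested was -0.01 and 51.5% of them were negative. By edgeR's quasi-likelihood test 0 of the 10 had an adjusted p under 0.05, against 0.0338% of all genes tested. At an unadjusted p of 0.05 or less it was 5 of 10, all lower in K14;Nogo-A, against 6.66% of all genes. The likelihood-ratio test of edgeR and limma-voom also called 0 members after adjustment, and DESeq2 called 1, Tek. Of all 14791 genes, DESeq2 called 169 lower and 148 higher, the likelihood-ratio test 108 and 58, and limma-voom 4 and 0. The study's own thresholds, a fold change of 0.5 or more in either direction on the log2 scale together with an unadjusted p no higher than 0.05, were passed by Cdh5, Kdr, Tek and Emcn, 4 of 10 in the lower direction, against 2.74% of all genes. In the higher direction it was 0 of 10, against 2.02%. For 3 members, Cdh5, Kdr and Tek, every K14;Nogo-A library was below every wild-type library, as it was for 6.09% of all genes. The 10 genes are measured in the same libraries and move together, so that these counts are not 10 separate observations.

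In exact two-sided permutation tests over all 35 assignments of the 7 libraries, where the smallest p possible is 0.0286, Cdh5 and Tek gave 0.0571, Kdr and Emcn 0.0857, Pecam1 0.114 and each of the other 5 members 0.171 or more. None of the 10 members reached a p of 0.05 by these permutations. The 4 members past the study's thresholds depended on single libraries, and with RLE factors or DESeq2 it was 3 members. Without K14;Nogo-A replicate 1, or without replicate 10, 0 members passed them, and without wild-type replicate 8 only 1 did, Kdr. Pecam1 joined the others when replicate 2 or 7 of K14;Nogo-A, or replicate 9 of wild-type, was left out, which made 5 members. Without replicate 3 of wild-type it took the place of Kdr, which left 4.

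**Figure D2:**
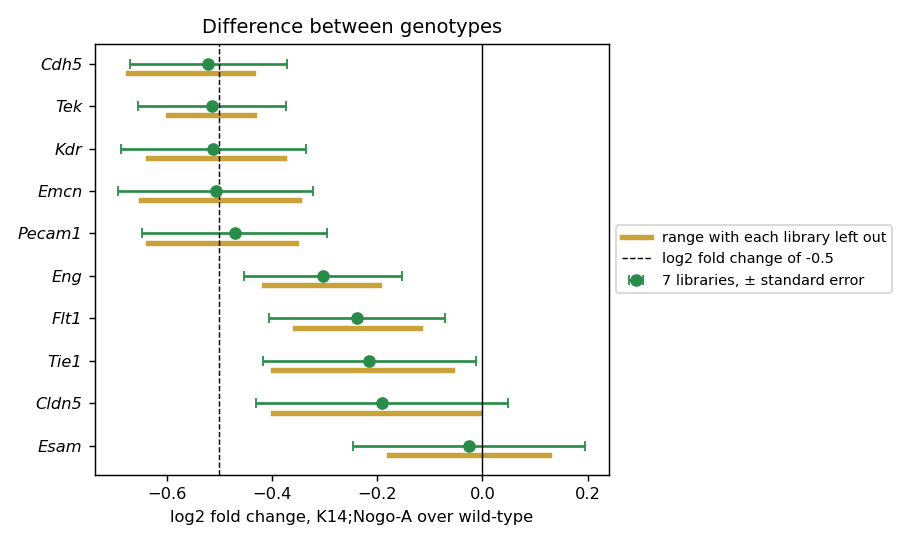
Log2 fold change of each member, K14;Nogo-A over wild-type, with its standard error from edgeR (green points and bars, 7 libraries), and the range of the value when each library was left out in turn (yellow bars). All 10 points lie left of 0, from -0.52 for Cdh5 to -0.02 for Esam, and 4 reach the dashed line at -0.5.

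The ratio of the highest to the lowest pup was larger in K14;Nogo-A than in wild-type for each of the 10 endothelial genes, a difference that was not tested and that grows with 4 pups against 3. By SD, Emcn was no more spread in K14;Nogo-A (3.81 CPM) than in wild-type (3.96 CPM). The highest K14;Nogo-A library was 1.41 times (Tek) to 2.08 times (Tie1) the lowest, while in wild-type the ratio was 1.04 (Tek) to 1.66 (Cldn5). Each gene was next centred on its own mean log2 CPM over the 7 libraries, so that genes of unequal level could be laid over each other. The mean of the 10 centred values was -0.54, 0.04, 0.23 and -0.37 in replicates 1, 2, 7 and 10 of K14;Nogo-A, and 0.21, 0.30 and 0.14 in replicates 3, 8 and 9 of wild-type. In replicates 1 and 10 all 10 members were below their own mean, in replicate 2 it was 4 and in replicate 7 none. In wild-type only Cldn5 and Esam in replicate 9 were below it. On this centred scale replicate 7 lay inside the range of the wild-type pups, while its summed CPM and its share of counts were just below it. The lowest levels were those of replicates 1 and 10, while replicate 2, at 0.04, was also below each wild-type pup.

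**Figure D3:**
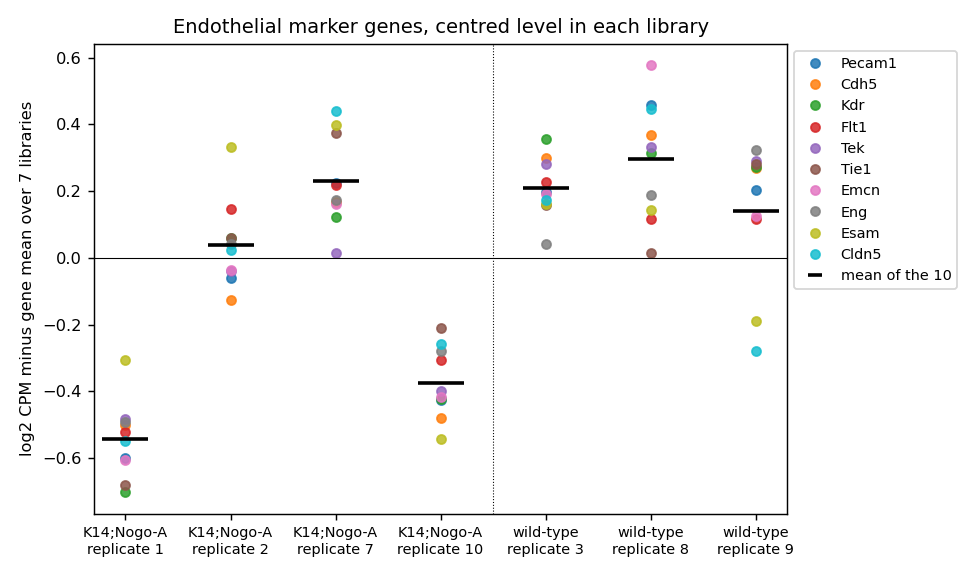
Log2 CPM of each member minus its own mean over the 7 libraries, one column per library, with the mean of the 10 members as a black line. All 10 genes are below 0 in K14;Nogo-A replicates 1 and 10 and all 10 above it in K14;Nogo-A replicate 7 and wild-type replicates 3 and 8.

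The levels of the members were compared with each other only per kb of exon, since longer genes gather more counts. Cdh5 was highest with 14.5 ± 3.48 CPM per kb (SD, n = 7 libraries), followed by Eng with 9.80 ± 1.82. Pecam1 with 6.65 ± 1.65, Tie1 with 6.09 ± 1.34, Cldn5 with 5.82 ± 1.52 and Esam with 5.66 ± 1.32 CPM per kb made a middle group. Kdr with 3.70 ± 0.925, Tek with 3.43 ± 0.754 and Emcn with 3.45 ± 0.927 CPM per kb came below it, and Flt1 was lowest with 1.63 ± 0.300. Of the 9 pairs of neighbours in this order, taken by mean log2 level, 4 differed in the same direction in 7 of 7 libraries: Cdh5 over Eng, Eng over Pecam1, Esam over Kdr and Emcn over Flt1. An exact two-sided sign-flip permutation test gave p = 0.0156 for each, the smallest it can give, and 0.0352 after Benjamini-Hochberg adjustment over the 9 pairs. The other 5 pairs did not differ beyond their spread, with adjusted p of the same permutation test from 0.141 for Kdr over Tek to 0.891 for Tek over Emcn. The highest value of any member in a library, 18.2 CPM per kb for Cdh5, was below the lowest of the epithelial Cdh1, 147 CPM per kb.

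**Figure D4:**
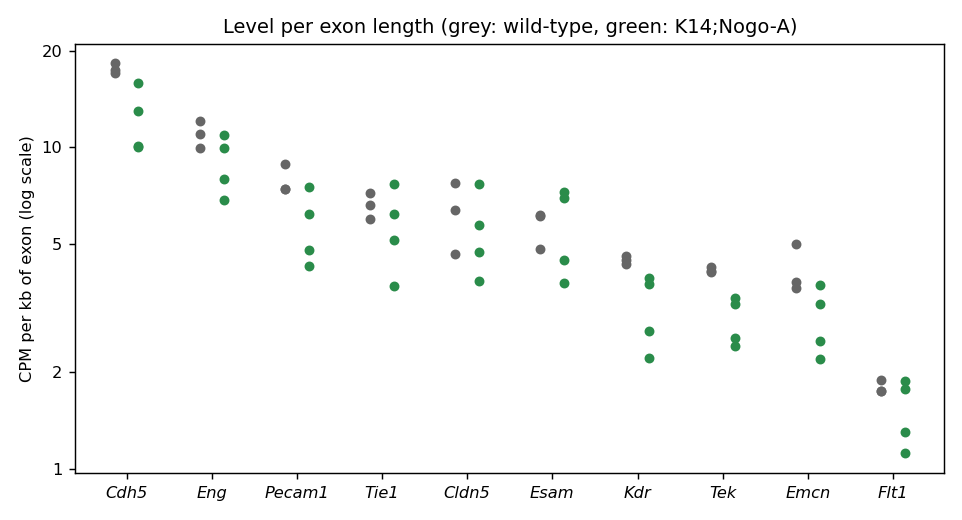
Level of each member per kb of exon (CPM per kb, log axis) in the 3 wild-type libraries (grey) and the 4 K14;Nogo-A libraries (green), in order of mean level. Cdh5 stands highest and Flt1 lowest in both genotypes.

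The ratio of 2 members within a library needs no scaling to library size, and was taken for all 45 pairs. The counts of Kdr over those of Flt1 were 1.32, 1.41, 1.40 and 1.38 in replicates 1, 2, 7 and 10 of K14;Nogo-A, and 1.64, 1.72 and 1.67 in replicates 3, 8 and 9 of wild-type. The ratio was lower in each of the 4 K14;Nogo-A pups, replicate 7 with its near wild-type level of endothelial genes included. The difference was -0.28 on the log2 scale (standard error 0.03, from the spread between the libraries). The exact two-sided permutation test gave p = 0.0286, the smallest it can give, and 0.257 after adjustment over the 45 pairs. Kdr over Flt1 was not alone in this, since Pecam1 over Cldn5, Flt1 over Emcn and Emcn over Cldn5 gave the same p and adjusted p. The ratio of Tek to Tie1 was 0.421 to 0.620 in K14;Nogo-A against 0.545 to 0.676 in wild-type, and overlapped. Of the 45 pairs 8 did not overlap between the genotypes, 4 of them with Flt1, against 12.3% of all pairs of the 12673 genes with a mean of at least 50 counts and no library at 0. These pairs were looked at after the values of the members were known.

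The genes whose course over the 7 libraries was most like that of the members were found by the root mean square difference between their centred log2 CPM and the mean of the 10, among 12526 genes with a mean of at least 50 counts. The closest were Gimap6 with 0.06, Lcp1 with 0.08, Fgd5 with 0.08, Arap3 with 0.08, Inpp5d with 0.09, Adcy5 with 0.09, Col15a1 with 0.10 and Tnmd with 0.10 on the log2 scale. The median gene was at 0.35. The members themselves lay between 0.08 for Pecam1 and 0.22 for Esam, so that Gimap6 and Lcp1 were nearer to the mean of the members than any member was. Fgd5 and Arap3 are known from endothelial cells, Lcp1 and Inpp5d from white blood cells, and Tnmd from tendon. Gimap6 had 4.52, 7.34, 7.81 and 5.68 CPM in replicates 1, 2, 7 and 10 of K14;Nogo-A, and 8.35, 9.11 and 7.49 CPM in replicates 3, 8 and 9 of wild-type.

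The members were set beside 95 other genes of vessels in 7 lists, of which 93 were tested. By edgeR's quasi-likelihood test 0 of the 93 had an adjusted p under 0.05, against 0.0338% of all genes tested. Its likelihood-ratio test called 1 gene of the VEGF and angiopoietin list and 1 of the pericyte list lower. DESeq2 called 2 and 1 of these lists and 1 of the basement membrane list lower. Of all 14791 genes the likelihood-ratio test called 108 lower and 58 higher, and DESeq2 169 and 148. Of the 93 genes 69 had a negative log2 fold change. In the lower direction 15 passed the study's thresholds, against 2.74% of all genes tested, and in the higher direction 0, against 2.02%. Among 25 other endothelial genes, 23 were negative with a median of -0.28, and 6 passed the thresholds: Ptprb, Clec14a, Adgrl4, Vwf, Cd93 and She. Ptprb, a phosphatase that acts on Tek and VE-cadherin, had 5.63, 8.18, 6.56 and 3.93 CPM in replicates 1, 2, 7 and 10 of K14;Nogo-A and 9.88, 10.4 and 9.41 CPM in replicates 3, 8 and 9 of wild-type. It stayed past the thresholds with each of the 7 libraries left out, with log2 fold changes of -0.88 to -0.55, and its adjusted p was 0.24. The count of 6 was 2 without K14;Nogo-A replicate 1, 1 without replicate 10 and 1 without wild-type replicate 8.

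Of 20 transcription factors of the endothelial and blood lineages, 15 were negative with a median of -0.25, and Fli1 and Tal1 passed the study's thresholds. Fli1, an ETS factor, had 5.68, 5.48, 5.23 and 4.42 CPM in replicates 1, 2, 7 and 10 of K14;Nogo-A and 9.21, 8.77 and 5.96 CPM in replicates 3, 8 and 9 of wild-type. Its log2 fold change was -0.63 (SE 0.19; edgeR, adjusted p = 0.24), and it was past the thresholds with each library left out, but not with Y-linked expression as covariate, where 0 genes of the list passed and the median was -0.13. Erg, the closest relative of Fli1 and an ETS factor that endothelial cells use to hold their identity, had 11.03, 10.8, 10.5 and 8.77 CPM in replicates 1, 2, 7 and 10 of K14;Nogo-A and 12.2, 14.1 and 15.6 CPM in replicates 3, 8 and 9 of wild-type. Both ETS factors were below the wild-type pups in K14;Nogo-A replicates 2 and 7 too, as were the members Cdh5, Kdr and Tek. The log2 fold change of Erg was -0.44 (SE 0.14; edgeR, adjusted p = 0.25). The count of 2 was 1 without K14;Nogo-A replicate 10 or replicate 8 of wild-type, with DESeq2, with a filter on CPM or with the mesenchyme markers as covariate, and Tal1 was at 0.508 to 1.85 CPM.

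Of 11 ligands and co-receptors of the VEGF and angiopoietin systems, 7 were negative with a median of -0.31, and Nrp1, Angpt4 and Angpt2 passed the study's thresholds. Nrp1, a co-receptor that presents VEGF to Kdr and is also used by nerves and mesenchyme, had 7.89, 11.1, 11.9 and 7.86 CPM in replicates 1, 2, 7 and 10 of K14;Nogo-A and 14.1, 16.8 and 15.1 CPM in replicates 3, 8 and 9 of wild-type. Its log2 fold change was -0.66 (SE 0.17; edgeR, adjusted p = 0.20), past the thresholds with each library left out. Angpt2 and Angpt4, both ligands of Tek, had log2 fold changes of -0.76 and -0.75. Vegfa, the main ligand of Kdr, which epithelia make, had a mean of 66.0 CPM in K14;Nogo-A against 61.4 in wild-type, with a log2 fold change of 0.11 (SE 0.09; edgeR, adjusted p = 0.66). The count of 3 was 1 without wild-type replicate 8, and 1 gene of the list was past the thresholds in the higher direction without K14;Nogo-A replicate 1 or 10.

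The lists for single kinds of vessel gave medians smaller in size. Of 11 arterial, venous and tip cell genes the median was -0.06 and only Dll4, a Notch ligand of arteries and tip cells, passed the thresholds, with 0 genes past them without wild-type replicate 3 and 3 without replicate 7 of K14;Nogo-A or replicate 9 of wild-type. It was 2 with the likelihood-ratio test, limma-voom or no filter on low counts, and 0 with the mesenchyme markers as covariate. Of 6 lymphatic genes 4 were tested, with a median of -0.06, and Mmrn1 passed the thresholds at 0.687 to 1.95 CPM, though not without wild-type replicate 3 or 8, nor with Y-linked expression as covariate. The lymphatic marker Ccl21a is listed at 0 in all 7 libraries.

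The genes of the outside of vessels made up a pericyte and a matrix list. Of 14 pericyte and smooth muscle genes 8 were negative with a median of -0.05, and their summed level was 583 to 781 CPM in K14;Nogo-A against 701 to 845 in wild-type. Abcc9, a channel subunit of pericytes, was the only one past the study's thresholds, with 28.2, 41.5, 39.0 and 31.4 CPM in replicates 1, 2, 7 and 10 of K14;Nogo-A and 51.4, 50.1 and 59.8 CPM in replicates 3, 8 and 9 of wild-type. Its log2 fold change was -0.62 (SE 0.14; edgeR, adjusted p = 0.17), and it passed with each library left out. Pdgfrb had 34.4 to 51.7 CPM in K14;Nogo-A against 59.7 to 68.1 CPM in wild-type, without overlap, and a log2 fold change of -0.44. It passed without K14;Nogo-A replicate 7, which brought the count to 2. With Y-linked expression as covariate the count was 2 too, and with the mesenchyme markers it was 9. Of 8 genes of the vascular basement membrane 7 were negative with a median of -0.35. Nid2 passed the thresholds at -0.55, and Nid1 and Lama4 stood at -0.50 and -0.48. The count of 1 was 3 without replicate 2 or 7 of K14;Nogo-A or replicate 3 of wild-type, 4 with limma-voom, 2 with the likelihood-ratio test, upper-quartile factors or either other filter, and 3 or 6 with Y-linked expression or the mesenchyme markers as covariate. Other mesenchymal and epithelial cells make these matrix proteins too.

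Markers of other cells moved with the members in part. The 16 mesenchyme markers, the tissue that Dispase is meant to remove and in which the vessels lie, had a mean log2 CPM of 7.03 to 7.30 in K14;Nogo-A against 7.60 to 7.77 in wild-type, without overlap. Their summed CPM did overlap, with 11223 to 33225 in K14;Nogo-A against 26396 to 41243 in wild-type. Within K14;Nogo-A the members and the mesenchyme did not follow each other. Replicate 1, lowest in the members, had the highest mesenchyme mean, 7.30, and replicates 2 and 7, with more endothelial RNA, had 7.03 and 7.13. The mean log2 CPM of the members minus that of the mesenchyme markers was -3.24, -2.38, -2.30 and -2.91 in replicates 1, 2, 7 and 10 of K14;Nogo-A, and -2.94, -2.87 and -2.86 in replicates 3, 8 and 9 of wild-type. On this scale the wild-type pups lay between the K14;Nogo-A pups. With the mesenchyme mean as a covariate the median log2 fold change of the members was -1.09, but no wild-type pup had a mesenchyme mean as low as a K14;Nogo-A pup, so that this fit extrapolates.

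Of 9 erythroid genes 8 were counted, with Hbb-y at 0, and the summed level was 147, 427, 374 and 275 CPM in replicates 1, 2, 7 and 10 of K14;Nogo-A and 514, 276 and 340 CPM in replicates 3, 8 and 9 of wild-type. It was lowest in K14;Nogo-A replicate 1, as the members were. The 12 immune markers summed to 64.3 to 123 CPM in K14;Nogo-A against 89.8 to 142 in wild-type. Of 8 platelet markers, which matter for Pecam1 and Esam, 5 were below 1 CPM in every library, and their sum was 27.9 to 33.4 CPM in K14;Nogo-A against 29.8 to 38.8 in wild-type. The sums of the 8 Schwann cell genes, 25.3 to 33.8 and 24.1 to 34.0 CPM, and of the 8 skeletal muscle genes, 3.23 to 21.2 and 7.88 to 13.1 CPM, overlapped as well. The 10 epithelial markers summed to 9459 to 11263 CPM in K14;Nogo-A against 6953 to 11139 in wild-type, and the 7 ameloblast genes to 31399 to 103580 and 12759 to 40506 CPM. The Y-linked genes were at a mean log2 CPM of 4.94 to 5.27 in K14;Nogo-A replicate 1 and wild-type replicates 3 and 8 and at -3.71 to -3.04 in the other 4 libraries, that is, high in 1 of 4 K14;Nogo-A pups and in 2 of 3 wild-type pups. With that mean as a covariate the median log2 fold change of the members was -0.52. The part of the other lists in the levels of the members was not tested.

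**Figure D5:**
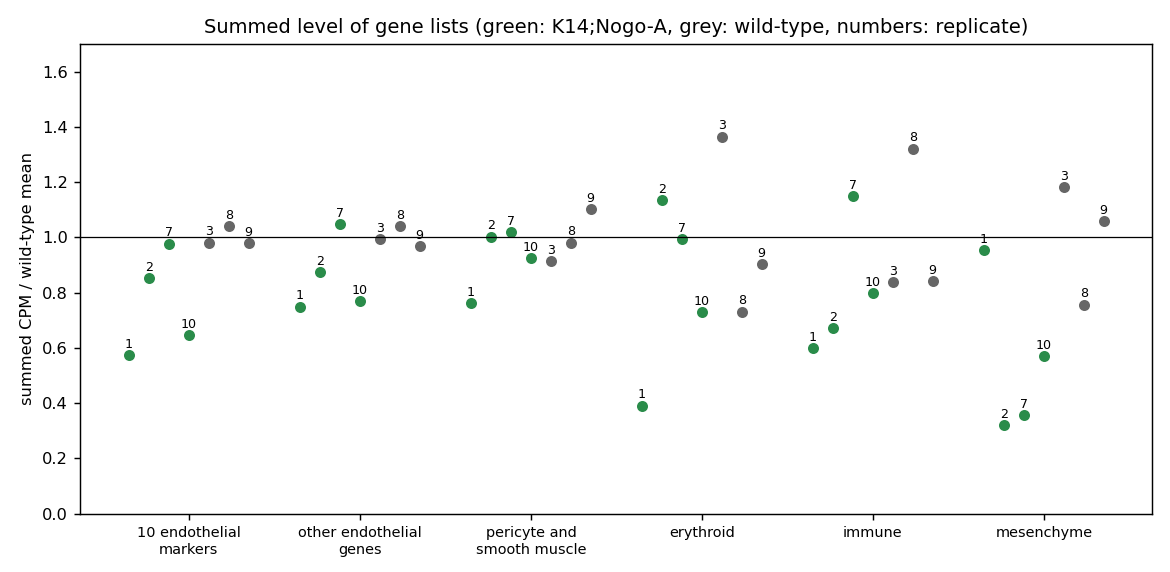
Summed CPM of 6 gene lists in each library, divided by the mean of the 3 wild-type libraries (line at 1), for K14;Nogo-A (green) and wild-type (grey), with replicate numbers. K14;Nogo-A replicate 1 is lowest for the 10 markers, the other endothelial genes, the pericyte, erythroid and immune lists, while in the mesenchyme list the other 3 K14;Nogo-A replicates and wild-type replicate 8 are below it.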

How the data were processed

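RNA of 7 newborn pups, 4 K14;Nogo-A and 3 wild-type, was sequenced after poly(A) selection. Another control pup of the study is not analysed here. The authors deposited whole-number counts for each Ensembl gene: per the labels and the study's methods, STAR 2.7.1 was used for alignment to GRCm38 and featureCounts for counting. The kit is given as stranded in the labels, while the setting for strand in featureCounts was not stated in the sources used here. Symbols and positions were taken from GENCODE M21, with a symbol for 25664 of 25700. The other 36 held 0.0348% of the counts and stayed in the library sizes.

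A gene was tested where 50% or more of the libraries of a genotype held 10 counts or more, using edgeR 4.0.16 (R 4.3.3), TMM factors and the robust quasi-likelihood test without covariates, with Benjamini-Hochberg adjustment over all 14791. CPM used the TMM sizes, and log2 CPM a prior count of 2. Values per kb used the union of exons. Each library is 1 pup, so the spread is that between pups. Totals of 20929207 to 41219439 counts set the counting error, and no interval for it is given. Promoter windows came from the RefSeq table of GRCm38.p6.

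Groups came from the sample labels. The named genes are the 10 members, up to 4 genes of each of the 7 vessel lists by smallest p with every gene past the study's thresholds, and the 8 genes most like the members. Vegfa was named outside this rule, as the main ligand of Kdr. The members and lists were chosen with earlier results of these data known. The study's fold threshold was read as log2. Alternatives were RLE and upper-quartile factors, the likelihood-ratio test, DESeq2 1.42.0, limma-voom (3.58.1), 2 other filters, a log2 threshold of 1, thinned counts, the mesenchyme markers or the Y-linked genes as a covariate, and each library left out. The fits were tested on simulated data.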

Additional observations from a re-analysis of the deposited data

Results flagged for a closer look

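Of 57 values tested for a K14;Nogo-A library that stands apart from the other 3, namely the members, the genes named beside them and the sums of the lists, 1 was past Dixon's 95% critical value for 4 samples, and chance alone passes about 1 in 20. It was Elk3, an ETS factor of the endothelial transcription factor list, with 62.4 CPM in replicate 1 and 79.3 to 82.7 CPM in replicates 2, 7 and 10 (ratio 0.834). None of the 10 endothelial members was past it. Replicate 1 was also the library with the lowest level of 9 of the 10 members.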

How the results depend on the processing

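The negative sign of all 10 members held under the 10 alternatives that kept all 7 libraries and gave single-gene values. The median log2 fold change was -0.38 with RLE factors, -0.39 with upper-quartile factors, -0.38 with DESeq2, -0.40 with limma-voom and -0.38 with counts thinned to the smallest library. With a covariate it was -0.52 for the Y-linked genes and -1.09 for the mesenchyme markers, where the genotypes do not overlap in the covariate and the fit extrapolates. With each library left out it lay between -0.51 and -0.28. DESeq2 called 1 member after adjustment, Tek, with 169 genes lower and 148 higher over all genes. No other setting called any member. In the lower direction the study's thresholds were passed by 4 members in the main fit and by 3 with RLE factors or DESeq2. The count was 5 with either covariate, 2 with thinned counts and 0 at a log2 fold change of at least 1. With each library left out it was 0 to 5, as given above by library. Of 170 values of single members under 17 settings, 166 kept their sign. The 4 others were of Esam, which ranged from -0.18 to 0.13 with each library left out and was above 0 without replicate 1 (0.07) or 10 (0.13) of K14;Nogo-A, or 3 (0.04) or 8 (0.03) of wild-type. The cause was not tested. The paper describes the controls as littermates, but the litter of each pup was not known here, so no paired analysis was done. With 4 and 3 pups the exact permutation test cannot give a p below 0.0286 for a single gene, and members at 118 counts carry more counting error than those at 3149.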
